A study of Homo sapiens with 10 samples.

Results

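BR16 is a colony of TPC-1 cells that had adapted to growth in the RET inhibitor BLU667, and it was compared here with TPC-1 cells given the solvent DMSO for 24 h. TPC-1 is an established human papillary thyroid carcinoma line in which a CCDC6-RET fusion drives growth, and every library of the series carries it. The series holds 10 libraries of bulk RNA sequencing in 5 groups of 2: DMSO for 24 h, 5 µM BLU667 for 24 h, and the adapted colonies BR8, BR10 and BR16. Per the sample labels the colonies were kept in 5 µM BLU667 for more than 50 days, and the series' design text gives a longer time. The libraries are labelled biological replicates, but both BR16 libraries come from 1 colony, so their spread holds no difference between independently adapted lines. The compared genes were the 12466 of 58735 in the deposited table with at least 1 FPKM (fragments scaled to gene length and library size) in 2 or more of the 4 BR16 and DMSO libraries, and 10655 of them were protein-coding. Of these genes, 10633 reached 1 FPKM in all 4 libraries, 395 in both DMSO libraries and neither BR16 library, and 628 in both BR16 libraries and neither DMSO library. The rule used levels only: DCST1-AS1 was just inside it, with a second-highest value of 1.0001 FPKM, and COL6A3 just outside it, with 0.9998 FPKM.

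RET is a receptor tyrosine kinase that signals through adaptor proteins to the RAS, RAF, MEK and ERK cascade and to PI3K and AKT. The fusion places the kinase domain behind a partner that makes it active without ligand. BLU667 (pralsetinib) occupies the kinase's ATP site, and cells under such inhibitors are known to lose ERK output and to leave the cell cycle, while cells that grow on under the drug often do so with other receptors or pathways active.

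The 4 libraries held 15703804 to 18063122 reads in genes, and all 10 held 15243703 to 21904245. The BR16 libraries were the closest pair of the series, with a chi-square per degree of freedom of 2.74 between their counts against 27.4 for the DMSO pair, and log2 levels correlated across genes at 0.978 to 0.989 within the 5 pairs. The difference between the DMSO libraries followed gene GC content, at a Spearman correlation of 0.62 over genes, which are not independent replicates. The change of BR16 against DMSO also rose with GC, at 0.26, and the difference of BR16 from the other colonies did so more, at 0.61. Counts that moved by over 1.5 times with the GC trend of each library removed, and some others, are therefore given both ways. The library preparation did not keep strand, so genes that share over 10% of their exon bases with another gene, 2256 of those compared, are uncertain and are marked as such where named.

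BR16 expressed 2895 genes more highly than DMSO, 23.2% of those compared, and 3220 at lower levels, 25.8% (2116 without BR16 replicate 2), by limma on log2(FPKM + 1) with Benjamini-Hochberg adjusted p below 0.05. Changes are given as log2 differences on that scale, which understates the change of genes near 1 FPKM. These counts were 2979 and 3651 with the GC trend removed. They were 2197 and 2215 with only the BR16 and DMSO libraries in the fit. Changes of at least 2-fold were seen for 948 higher genes, 7.6%, and 654 lower genes, 5.25%, and for 822 and 667 with the trend removed. The median change over all compared genes was -0.02, with the middle 90% between -1.04 and 1.25, and the median standard error of a change was 0.12. Among 341 lincRNA genes 111 rose and 64 fell, while among 274 processed pseudogenes 26 rose and 46 fell. Counts in the gene lists below are to be read against the shares of 23.2% and 25.8% of all compared genes. Lists near those shares, such as the cell cycle inhibitors, the p53 targets and the ATF4 genes, do not stand out by their counts.

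The steepest rises were in secreted peptides, membrane proteins and matrix genes that DMSO cells barely expressed. EDN2, which encodes the vasoconstrictor peptide endothelin 2, stood at 0.296 and 0.154 FPKM in the DMSO libraries and at 132 and 142 FPKM in the BR16 libraries. Its change of 6.82 ± 0.112 (SE, n = 2 and 2 libraries, limma adjusted p = 1.897e-08) was the largest rise on the log2(FPKM + 1) scale among protein-coding genes with at least 5 FPKM in the higher group. The SEs given come from the 1 fit to all 10 libraries, so they are not the spread of the 2 groups alone. EDN1, for endothelin 1, rose from 0.133 and 0.0933 to 19.6 and 21.3 FPKM. MAL2, a protein of apical membrane transport, rose from 0.22 and 0.147 to 129 and 127 FPKM. PDZK1IP1, a small membrane protein, rose from 1.2 and 1.5 to 149 and 154 FPKM. NOV, a secreted matricellular protein of the CCN family, rose from 0.0605 and 0.166 to 59.9 and 60.9 FPKM. The naming rule took the largest rises only from genes whose BR16 and DMSO libraries did not overlap. Of all 12466 compared genes, 9244 had no such overlap, among them every called gene (6115). IGFBP7, a secreted binder of insulin-like growth factors that is marked for exon overlap, reached 724 and 788 FPKM from 24.1 and 21.9. CADM1, a cell adhesion molecule, rose from 0.0196 and 0.0689 to 21.5 and 21.8 FPKM. SLC4A11, a membrane transporter, rose from 1.63 and 1.12 to 46.7 and 52.3 FPKM. The other large rises, of IL32, COL4A4 and BGN, are described with their groups. VTCN1, NCALD, GPC4, CILP and LINC01857 were at 0 in both DMSO libraries and rose in BR16. Against a floor of 3 reads over the DMSO group, they were at least 225-fold, 545-fold, 265-fold, 275-fold and 19.8-fold higher.

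The steepest falls were in genes that DMSO cells expressed at moderate to high levels. G0S2, an inhibitor of the lipase that breaks down stored triglyceride, fell from 294 and 176 FPKM to 0.498 and 0.846 FPKM. Its change was -7.10 ± 0.322 (limma adjusted p = 1.694e-06), the largest fall on the log2(FPKM + 1) scale by the same rule. That scale understates falls that end near 0 FPKM, so G0S2 did not fall by the largest ratio of FPKM. NOX5, a calcium-regulated NADPH oxidase, fell from 63.5 and 56.4 to 0.0148 and 0.009 FPKM. TGM2, a protein-crosslinking transglutaminase, fell from 310 and 261 to 9.51 and 7.7 FPKM, and EMP1, an epithelial membrane protein, from 35.9 and 34.8 to 0.157 and 0.0719 FPKM. PDPN, the mucin-like glycoprotein podoplanin, went from 24.6 and 26.4 FPKM to 0 in both BR16 libraries, at least 1070-fold lower by the same floor over the BR16 group. NT5E, the ectonucleotidase CD73 that makes adenosine, fell from 88.9 and 109 to 3.69 and 3.59 FPKM. LAPTM5, SIGLEC15, CA12, KLF2 and KRT81 fell by between 3.73 and 5.03 on the log2 scale. The naming rule required of the largest falls, too, that the BR16 and DMSO libraries not overlap, which held for 9244 of all 12466 compared genes. SMIM10 was also at 0 in BR16 and at least 60.1-fold lower, and SLC2A3, a glucose transporter, was at least 109-fold lower.

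**Figure D1:**
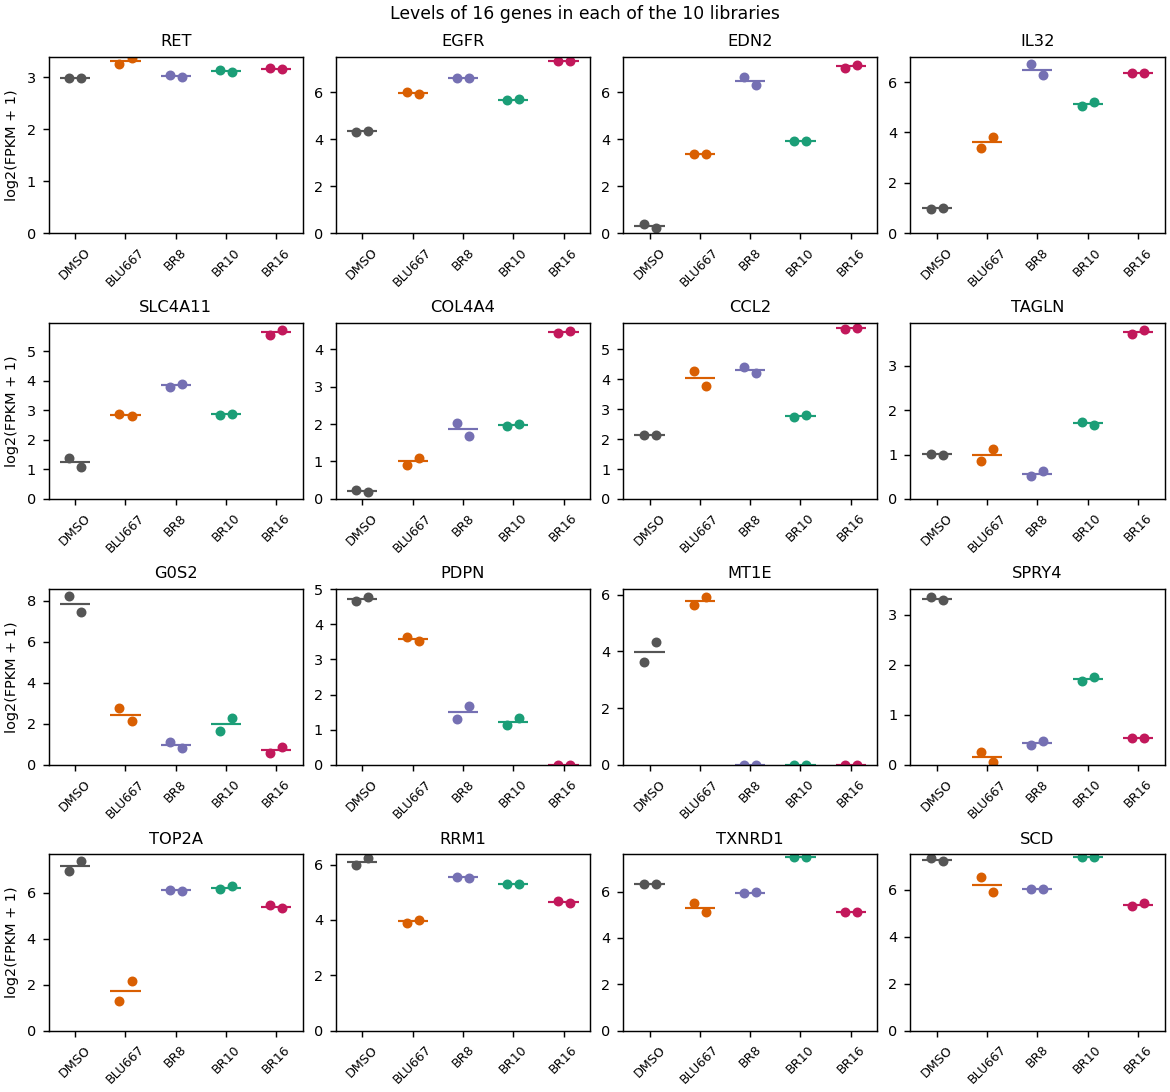
Levels of 16 genes as log2(FPKM + 1) in each library (dots) of the 5 groups, with the mean of each pair (bar). EDN2, IL32, SLC4A11, COL4A4, CCL2 and TAGLN were higher in both BR16 libraries than in DMSO, PDPN and MT1E were at 0 in BR16, and RET was at a similar height in every group.

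RET itself was at 6.9 and 6.92 FPKM in DMSO and at 8.04 and 7.94 FPKM in BR16. The BR16 libraries lay above the DMSO libraries, but the change of 0.18 ± 0.073 did not pass the test (limma adjusted p = 0.06987). CCDC6, the fusion partner, was below 1 FPKM in 3 of the 4 libraries and was not among the compared genes. GFRA1, a co-receptor through which ligand reaches RET, rose from 15.4 and 14.9 FPKM to 98.6 and 101 FPKM, a change of 2.64. SHC1 (marked), an adaptor that links receptors to RAS, fell from 112 and 95.2 to 60.6 and 58.7 FPKM. Of the 11 RET co-receptors and adaptors compared, 5 rose and 2 fell.

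Genes induced by ERK stayed low in the colony: of 23 compared, 15 were lower than in DMSO and 4 higher, with a median of -0.67. SPRY4, a feedback inhibitor of receptor signalling, fell from 9.22 and 8.74 FPKM to 0.441 and 0.446 FPKM, a change of -2.79 ± 0.109 (limma adjusted p = 8.22e-07). ETV1 and ETV5, ETS transcription factors that ERK sustains, fell by 2.75 and 2.65 on the log2 scale. SPRY1 fell from 5.74 and 5.62 to 0.357 and 0.483 FPKM. In all 4 genes the BR16 and DMSO libraries did not overlap, as in every called gene and in 9244 of all 12466 compared genes. The 4 that rose were EGR1 (1.77), EPHA4 (1.40), LIF (1.35) and IL11 (1.11), an immediate early transcription factor, an ephrin receptor and cytokines of the IL6 family. MYC and CCND1, looked up after the values were seen because they link ERK to growth, behaved differently: MYC was at 78.9 and 73.9 FPKM in DMSO and 68.1 and 70.5 FPKM in BR16, a change of -0.14 (adjusted p = 0.435, limma). CCND1 (marked), for cyclin D1, fell from 104 and 108 to 69.9 and 69.2 FPKM.

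Cell division genes were lower in BR16 than in DMSO almost throughout. Of 30 genes of S phase and DNA replication, 29 fell, with a median of -1.02, and only CCNE1 (3.62 and 2.93 FPKM in DMSO, 3.07 and 3.56 FPKM in BR16) did not pass the test. ORC1, of the origin recognition complex, fell from 13 and 16.8 to 5.17 and 4.05 FPKM. RRM1, of the enzyme that makes deoxynucleotides, fell from 61.7 and 75 to 24.6 and 23.4 FPKM, a change of -1.46 ± 0.10 (limma adjusted p = 1.27e-05). MCM4, of the replicative helicase, fell by 1.43 on the log2 scale. Of 25 mitosis genes all 25 fell, with a median of -1.44. PBK, a mitotic kinase, fell from 48.9 and 65.1 to 10.1 and 8.33 FPKM, and BUB1, a spindle checkpoint kinase, from 32.9 and 39.5 to 8.39 and 8.27 FPKM. TOP2A, the topoisomerase that separates daughter chromosomes, fell from 123 and 163 to 42.9 and 38.9 FPKM, and CENPE, a kinetochore motor, from 14.9 and 18.4 to 4.32 and 4.09 FPKM. These levels in BR16 were still well above those after 24 h of BLU667, as given below. In bulk RNA, fewer dividing cells and less of these transcripts per dividing cell cannot be told apart.

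Among inhibitors of the cell cycle, CDKN1C rose from 3.46 and 2.83 FPKM to 19.6 and 25.8 FPKM, a change of 2.51 ± 0.158 (limma adjusted p = 8.66e-06). CDKN2A fell from 57.9 and 47.5 to 25.6 and 26.5 FPKM, and RBL1, a relative of the retinoblastoma protein, from 6.85 and 9.9 to 3.61 and 3.83 FPKM. Of the 13 genes of this list 3 rose and 4 fell, or 6 with the GC trend removed. Of all compared genes 23.2% rose and 25.8% fell. TERT, which encodes telomerase reverse transcriptase, went down from 1.59 and 1.5 to 0.548 and 0.49 FPKM.

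Promoter letters were read from RefSeq (GRCh38.p14), from 250 bases before to 50 after each gene's start. They were matched to 8816 of the 12466 compared genes by gene ID or, failing that, by symbol, and on the same chromosome. The cell cycle homology region, searched as TTTGAA on both strands, was in 26.2% of promoters of the genes called at least 2-fold lower, against 9.18% of all matched promoters and 7.38% for the genes called at least 2-fold higher. It was in 11 of the 18 mitosis promoters, 61.1%. Their median GC was 59.3%, against 65.7% for all matched promoters. The promoter of TOP2A (chr17:40417847-40418146, minus strand) is printed 5′ to 3′ as an example of this set, with the matches in capitals at 194 and 151 bases before the start:
TOP2A: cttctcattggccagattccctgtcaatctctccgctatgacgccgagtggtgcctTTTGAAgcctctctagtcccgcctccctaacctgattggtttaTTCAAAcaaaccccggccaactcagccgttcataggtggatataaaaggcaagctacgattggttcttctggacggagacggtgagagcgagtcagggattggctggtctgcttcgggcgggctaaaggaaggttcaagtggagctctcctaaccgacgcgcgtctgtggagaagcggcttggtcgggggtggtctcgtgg
The E2F letters TTTGGCGC were in 8 of the 26 S phase promoters, 30.8%, against 1.24% of all. The ETS letters CCGGAAG were in 8.2% of the promoters of genes at least 2-fold higher and 13.2% of those at least 2-fold lower, against 20.4% of all. The other motifs fixed for the search, TGANTCA (AP-1), TGACGTCA (CRE) and TGATGCAA (ATF4), were in 6.56%, 2.95% and 0.82% of promoters of genes at least 2-fold higher, in 5.82%, 3.17% and 0.529% of those at least 2-fold lower, and in 4.5%, 3.36% and 0.42% of all. Matches describe letters only.

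EGFR and the PDGF ligands rose, while MET, TGFA and EREG fell. EGFR, the receptor for EGF, TGF-alpha and their relatives (chr7:55019021-55211628, GRCh38), stood at 18.8 and 19.6 FPKM in DMSO and at 161 and 161 FPKM in BR16. The change was 3.01 ± 0.072 (limma adjusted p = 1.07e-07), and no other receptor of the list changed as much. FGFR2, a fibroblast growth factor receptor, rose from 0.0498 and 0.117 to 2.97 and 3.35 FPKM, and EPHB2, an ephrin receptor, from 2.37 and 1.85 to 7.1 and 6.06 FPKM. MET, the receptor for hepatocyte growth factor, fell from 86 and 107 to 38.3 and 37.8 FPKM. Of the 17 receptor tyrosine kinases compared, 8 rose and 5 fell, with a median of 0.16.

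Ligands of these receptors were split: of 16, 9 rose and 5 fell, with a median of 0.35. PDGFB and PDGFD, ligands of the PDGF receptors, rose from 0.932 and 0.672 to 28.2 and 27.1 FPKM and from 0.253 and 0.637 to 10.1 and 9.8 FPKM. Their receptor PDGFRB meanwhile fell from 2.8 and 2.71 to 1.53 and 1.28 FPKM. GAS6, the ligand of AXL, rose from 9.65 and 8.38 to 27.6 and 31.1 FPKM. TGFA, a ligand of EGFR, fell from 34.5 and 37.9 to 9.85 and 9.53 FPKM, and EREG, another, from 4.47 and 6.4 to 1.51 and 1.02 FPKM.

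EGFR did not rise alone on its chromosome. The description that follows was made after the values were seen. The stretch was ended at the outermost genes of a run that rose. That all its compared protein-coding genes rose, and that the nearest ones outside did not, therefore follows from that choice. Of all compared protein-coding genes 23.8% rose. All 11 compared protein-coding genes from SEC61G to CHCHD2, a stretch of 1.35 Mb (chr7:54752250-56106576), rose in BR16, with changes from 0.76 to 3.01 and a median of 1.06, and all 11 rose as well with the GC trend removed. LANCL2, next to EGFR, rose from 5.43 and 6.08 to 23.1 and 21.9 FPKM, and VOPP1 from 14.1 and 14.5 to 47.1 and 49.2 FPKM. SUMF2, a sulfatase-modifying factor, rose from 24 and 19.8 to 63.1 and 62.3 FPKM, and CHCHD2, a mitochondrial protein, from 198 and 219 to 424 and 443 FPKM. CCT6A, of the chaperonin that folds actin and tubulin, rose from 99.9 and 119 to 206 and 189 FPKM, and PSPH, the last enzyme of serine synthesis, from 26.7 and 28.8 to 54.3 and 52.5 FPKM. SEC61G, NIPSNAP2, MRPS17 (marked) and ZNF713 (marked) rose by 0.93, 0.99, 1.11 and 0.76. The pseudogene PSPHP1 within the stretch fell from 20.7 and 21.8 to 9.91 and 12.3 FPKM.

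The genes next to that stretch did not rise together. On one side GRB10, a receptor adaptor, was at 6.71 and 7.33 FPKM in DMSO and 7.84 and 8.29 FPKM in BR16 and did not pass the test, and FIGNL1 fell by 0.79 on the log2 scale. On the other side, across the centromere, ZNF680 fell by 0.35 but did not pass with the GC trend removed, and ZNF107 (2.36 and 2.8 FPKM against 2.12 and 2.16 FPKM) did not pass the test. Farther along, VKORC1L1 fell by 0.68, while ERV3-1 and GUSB rose by 0.41 and 0.37, and ZNF117 passed as higher only with the GC trend removed (0.52, against 0.30 with it). Of the 11 genes, 8 were also above both BR8 and BR10, with and without the GC trend, namely EGFR, LANCL2, ZNF713, NIPSNAP2, MRPS17, CCT6A, SUMF2 and CHCHD2. Of all compared genes 17.5% were above both colonies before the trend was removed. The contrast with the colonies uses the same BR16 libraries from which the stretch was chosen, so it is no separate support for it. Against DMSO, the median change of the same 11 genes was 0.50 in BR8, with 6 higher, 0.15 in BR10, with 3 higher and 1 lower, and 0.05 after 24 h of BLU667, with 2 higher and 2 lower. These comparisons share the DMSO libraries. In BR8 the higher genes included SEC61G, at 115 and 121 FPKM, and VOPP1, at 47.3 and 45.1 FPKM. The copy number of the stretch was not measured.

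**Figure D2:**
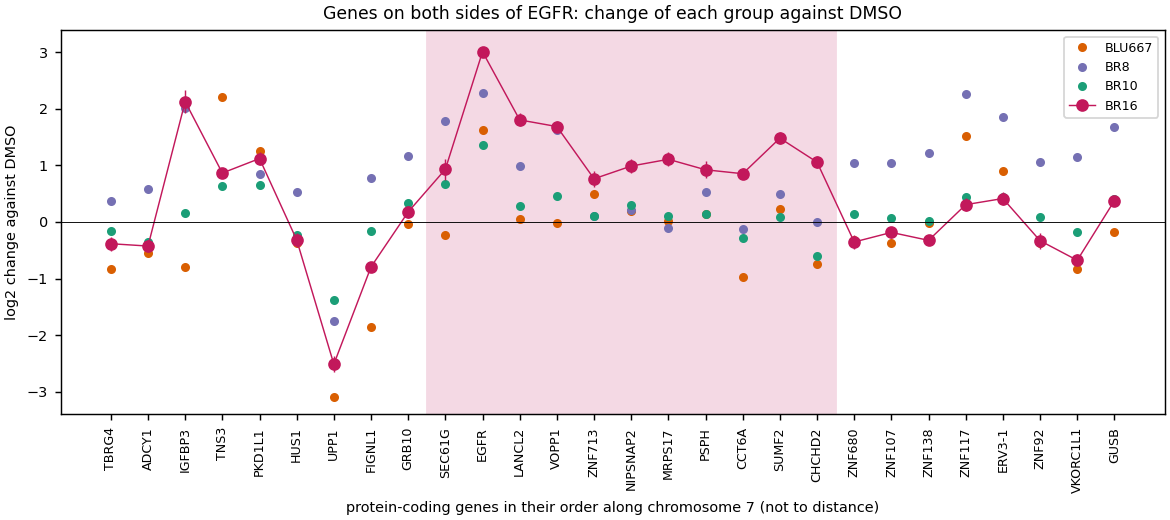
Log2 change against DMSO of the compared protein-coding genes around EGFR, in their order along chromosome 7 (not to distance), for BR16 (line, bars show 1 SE), BR8, BR10 and 24 h of BLU667; the shaded genes run from SEC61G to CHCHD2. All 11 shaded genes lie above 0 in BR16, while the genes on either side do not rise together. The ends of the shading were set from these values.

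Over windows of 10 Mb with at least 10 protein-coding genes, the window holding EGFR had the highest median change of BR16 against DMSO, 0.99 over 13 genes, and 1.09 with the GC trend removed. The next highest were on chromosome 17 from 80 Mb (0.44), chromosome 19 from 50 Mb (0.38) and chromosome 6 from 20 Mb (0.32). The lowest 4 windows followed one another on chromosome 8 from 10 to 50 Mb, with medians of -0.95, -0.86, -0.75 and -0.74. On chromosome 8 as a whole 228 of 389 genes fell and 48 rose, with a median of -0.49. Of all compared protein-coding genes 27.6% fell and 23.8% rose. The chromosome 8 medians in BR8 and BR10 against the same DMSO libraries were -0.42 and -0.45. No test was made over windows.

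**Figure D3:**
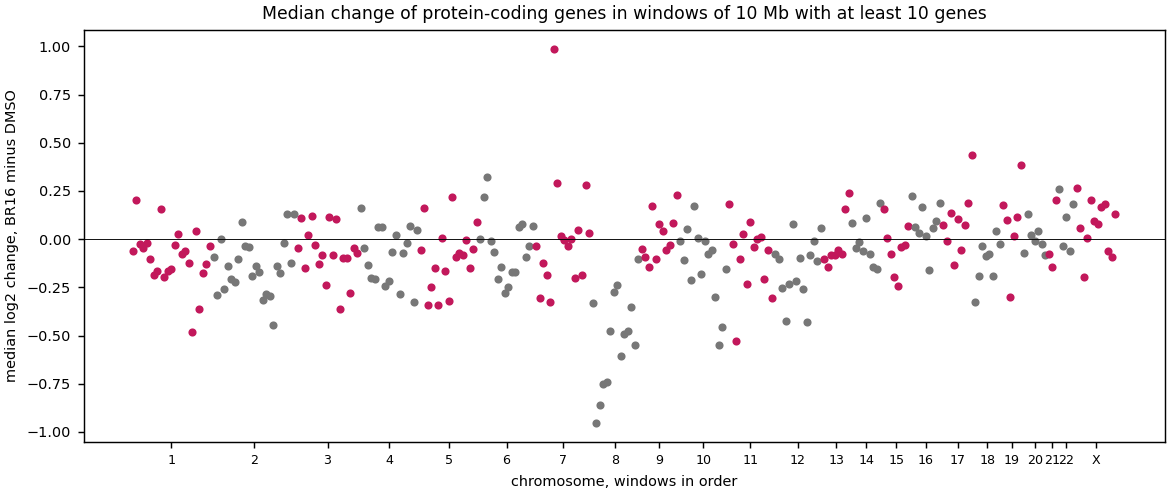
Median log2 change of BR16 against DMSO in windows of 10 Mb along the autosomes and X, each dot 1 window with at least 10 protein-coding genes. One window of chromosome 7, which holds EGFR, lies near 1, and 4 windows of chromosome 8 lie below -0.7.

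Inflammatory genes rose as a group. Of 13 NF-kB targets and chemokines, 12 rose and none fell, with a median of 1.64, and 12 also rose with the GC trend removed. CCL2, a chemokine that draws monocytes, rose from 3.37 and 3.44 FPKM to 50.9 and 51.3 FPKM, a change of 3.57 ± 0.149 (limma adjusted p = 1.1e-06). IL6 (marked), a cytokine, rose from 0.86 and 0.764 to 22.3 and 19.2 FPKM, and TNF, another, from 0.0322 and 0 to 10.7 and 9.38 FPKM. RELB, an NF-kB subunit, rose from 5.54 and 3.81 to 34.8 and 32 FPKM, and only CXCL2 (4.17 and 4.64 FPKM, then 4.72 and 5.49 FPKM) did not pass the test. IL32, an inflammatory cytokine outside the list, rose from 0.941 and 1 to 80.1 and 81 FPKM. The BR16 and DMSO libraries did not overlap in the named genes that rose, as in every called gene and in 9244 of all 12466 compared genes.

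Genes that display peptides to T cells rose too: of 14 antigen presentation genes 12 rose and none fell, with a median of 0.91. TAPBP, which loads peptides onto class I molecules, rose from 27.9 and 22.3 to 64.4 and 65.1 FPKM. HLA-B (marked, and of a family of similar genes) rose by 1.52, and HLA-C, of the same family, from 15.4 and 12.1 to 32.6 and 35 FPKM. Of 15 interferon-stimulated genes 6 rose and 1 fell, with a median of 0.34, and 9 rose with the GC trend removed. IFI6 rose from 6.36 and 7.82 to 22.8 and 25.5 FPKM, and ISG15 and IFIT3 rose by 1.17 and 0.98. IFITM3 (marked), named as the only one that fell, went from 127 and 104 to 61.8 and 57.7 FPKM. Of 15 genes of IL6, JAK and STAT signalling 7 rose and 3 fell: JAK1, a kinase bound to cytokine receptors, rose from 25.9 and 31 to 85.9 and 83 FPKM. SOCS3, a feedback inhibitor of that signalling, fell from 16.5 and 12.4 to 1.87 and 2.19 FPKM, and OSMR, the oncostatin M receptor, fell by 1.81.

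The promoters of IL32 (chr16:3065153-3065452, plus strand) and TAPBP (chr6:33314029-33314328, minus strand) are shown because they hold the letters searched, on both strands, for these groups. In IL32 the capitals mark GGGA, any base and TTTCC (NF-kB), 99 bases before the start, a motif added after the values were seen. In TAPBP they mark TTTC, any 2 bases and TTTC (interferon response element), read on the other strand, in overlapping matches 20 and 14 bases before the start:
IL32: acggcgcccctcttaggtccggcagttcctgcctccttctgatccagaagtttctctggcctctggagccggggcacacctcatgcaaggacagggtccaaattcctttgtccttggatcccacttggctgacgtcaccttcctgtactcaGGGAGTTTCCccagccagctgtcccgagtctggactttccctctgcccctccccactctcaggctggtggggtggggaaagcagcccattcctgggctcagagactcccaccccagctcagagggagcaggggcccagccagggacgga
TAPBP: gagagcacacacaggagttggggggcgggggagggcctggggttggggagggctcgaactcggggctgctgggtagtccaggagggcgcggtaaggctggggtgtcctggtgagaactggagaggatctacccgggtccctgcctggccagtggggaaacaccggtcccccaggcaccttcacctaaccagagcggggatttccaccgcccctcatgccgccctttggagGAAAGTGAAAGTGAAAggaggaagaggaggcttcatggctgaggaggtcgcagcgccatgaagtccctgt
The NF-kB letters were in 6 of 11 promoters of the NF-kB list, 54.5%, in 1.97% of the promoters of genes at least 2-fold higher, in none of the 378 promoters of genes at least 2-fold lower and in 0.59% of all. The interferon letters were in 8 of 10 promoters of the interferon list and 6 of 11 of the antigen presentation list. They were in 3.93% and 2.91% of those of genes at least 2-fold higher and lower, and in 2.72% of all. Median promoter GC was 54.7% in the interferon list, 62% in the NF-kB and antigen presentation lists and 65.7% in all.

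Of 22 matrix and basement membrane genes 13 rose and 5 fell, with a median of 0.91. COL4A1 and COL4A2, which form the main collagen IV network, rose from 35.8 and 33.5 to 421 and 418 FPKM and from 34.8 and 22.8 to 201 and 207 FPKM. COL4A4, of a second collagen IV network and outside the list, rose from 0.171 and 0.144 to 20.7 and 21.4 FPKM. BGN, for the small proteoglycan biglycan, rose from 0.22 and 0.103 to 20.3 and 19 FPKM, and COL7A1, of anchoring fibrils, by 2.75. The genes that fell were COL5A2, COL13A1, LAMB3, TNC and FBLN1, by between 0.40 and 0.78 on the log2 scale.

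Of 12 matrix proteases and plasminogen system genes 7 rose and 1, TIMP1, fell, or 2 with the GC trend removed or without DMSO replicate 2. ADAMTS1, a secreted metalloprotease, rose from 5.54 and 5.16 to 38.4 and 39.6 FPKM. MMP7, the protease matrilysin, was at 0 in both DMSO libraries and at 3.05 and 3.25 FPKM in BR16, at least 83.3-fold higher. Among 11 integrin subunits 6 rose and 2 fell: ITGB8 rose from 0.0925 and 0.0793 to 4.29 and 4.22 FPKM and ITGAV from 37.5 and 47.4 to 105 and 99.8 FPKM. The laminin and collagen receptor subunits ITGA6 and ITGA2 fell by 1.55 and 1.30. Of 17 YAP and TAZ targets 11 rose and 2 fell, with a median of 0.52. CYR61, a matricellular protein, rose from 135 and 109 to 625 and 628 FPKM, and ANKRD1 and CRIM1 rose by 1.63 and 1.55, while NT5E, also on this list, fell by 4.42.

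Mesenchymal genes did not move one way: of 12, 6 rose and 5 fell, and 3 fell without DMSO replicate 2. TAGLN (marked), an actin-binding protein of contractile cells, rose from 1 and 1 to 12.2 and 12.9 FPKM. SNAI2, a transcriptional repressor of epithelial genes, rose from 3.82 and 5.26 to 18.3 and 17.3 FPKM, and SPARC, a matrix glycoprotein, from 174 and 166 to 540 and 542 FPKM. The related factors SNAI1 and ZEB1 fell, from 7.64 and 8.33 to 5.4 and 5.55 FPKM and from 9.19 and 10.9 to 3.64 and 3.59 FPKM. Of 6 epithelial genes 3 rose: KRT8, a keratin, from 26.6 and 20.7 to 69 and 62 FPKM, CLDN1, a tight junction protein, from 45.8 and 55.1 to 123 and 115 FPKM, and OCLN, another, by 0.90.

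Developmental pathways were mixed as well. Of 17 TGF-beta pathway genes 5 rose and 9 fell, and 6 fell with the GC trend removed and 4 without DMSO replicate 2. TGFBI, a secreted target of the pathway, rose from 2.01 and 2.3 to 15.7 and 15.4 FPKM and SMAD7, its feedback inhibitor, by 1.53, while the receptor TGFBR2 fell from 120 and 136 to 44.3 and 43.4 FPKM and SMAD6 by 1.38. Of 14 Wnt pathway genes 6 rose and 5 fell: WNT5B rose from 1.98 and 2.13 to 17.5 and 16.9 FPKM and WNT7B by 1.18, and the receptors FZD8 and LGR5 fell by 1.96 and 1.62. Only 4 of those 14 rose with the GC trend removed. Of 11 Notch pathway genes 5 rose and 4 fell: the ligand JAG1 rose from 1.76 and 1.85 to 20 and 19.9 FPKM, and JAG2 and the target HES4 by 1.55 and 1.89, while the target HES1 fell from 19.8 and 17.7 to 4.18 and 3.23 FPKM. Of the 4 hedgehog genes GLI2 rose by 2.06 and GLI3 and SUFU fell by 1.23 and 0.43, of which SUFU did not pass without BR16 replicate 1 (-0.37, limma adjusted p = 0.0623).

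Metabolic genes were mostly lower. Of 22 glycolysis and hypoxia-inducible genes 16 fell and 3 rose, with a median of -0.59. CA12, a carbonic anhydrase, fell from 27.1 and 23.1 to 0.682 and 0.809 FPKM, and NDRG1, a stress-induced gene, from 21.8 and 17.6 to 5.91 and 5.38 FPKM. SLC2A3 was at 1.65 and 1.47 FPKM in DMSO and at 0 in BR16, and PFKFB4, an enzyme that tunes glycolytic flux, fell by 1.30. The 3 that rose were PFKFB3, PFKP and ADM, by 0.75, 0.39 and 1.08. Of 9 serine and one-carbon enzymes 6 fell and 1 rose: PHGDH and PSAT1, of the first steps of serine synthesis, fell from 23.8 and 20.1 to 11.5 and 10.9 FPKM and from 218 and 256 to 135 and 137 FPKM. MTHFD2 (marked), of mitochondrial folate metabolism, fell by 0.92. The riser was PSPH, which lies in the chromosome 7 stretch.

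Antioxidant genes driven by NRF2 fell, 9 of 15 against 2 that rose, with a median of -0.43. TXNRD1, thioredoxin reductase, fell from 79.8 and 78.6 to 33.3 and 33.5 FPKM, a change of -1.22 ± 0.118 (limma adjusted p = 8.48e-05). AKR1C3, an aldo-keto reductase, fell from 7.57 and 9.08 to 3.51 and 2.79 FPKM, NQO1 (marked), a quinone reductase, by 0.84 and SLC7A11, the cystine transporter, by 0.76. Of 24 sterol and fatty acid synthesis genes 9 fell and 5 rose, while 11 fell and 4 rose with the GC trend removed and 9 fell and 3 rose without DMSO replicate 2. SCD, the desaturase that makes oleate, fell from 161 and 148 to 38.9 and 41.8 FPKM. FDFT1, squalene synthase, fell from 16.8 and 16.8 to 6.1 and 6.53 FPKM, a change of -1.28. Of 22 ATF4 and unfolded protein response genes 4 rose and 5 fell, near the shares of all compared genes, 23.2% and 25.8%. With the GC trend removed 9 fell. DDIT4 (marked), TRIB3 and SLC7A11 fell and ATF3 rose by 1.33.

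Genes of the BCL2 family, which holds both blockers and promoters of apoptosis, of drug export and of lysosomes rose more often than they fell. Of 14 BCL2 family genes 8 rose and 1 fell, while with the GC trend removed 7 rose and 4 fell. BCL2, which blocks apoptosis, rose from 0.646 and 0.656 to 6.54 and 6.13 FPKM. BIK, which promotes it, rose from 0.622 and 0.332 to 6.53 and 7.86 FPKM, BCL2A1 by 1.35, and BBC3, another promoter of apoptosis, from 2.19 and 1.49 to 5.01 and 5.26 FPKM. MCL1, the only member that fell and named for that, went from 104 and 114 to 71.3 and 68.3 FPKM. Of 8 ABC exporters 6 rose and 2 fell: ABCB1, the drug efflux pump P-glycoprotein, rose from 0.464 and 0.37 to 5.21 and 5.24 FPKM, a change of 2.14 ± 0.092 (limma adjusted p = 1.23e-06). ABCC4 and ABCC1 rose by 0.87 and 0.80 and ABCA1, a cholesterol exporter, fell by 0.83. Among 3 drug-metabolising enzymes GSTP1 rose from 192 and 139 to 366 and 394 FPKM and CYP2J2 rose by 1.21, while NNMT fell by 0.84.

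Of 21 lysosome and autophagy genes 14 rose and 1 fell, with a median of 0.53. LAMP1, a lysosomal membrane protein, rose from 53.3 and 49.8 to 127 and 136 FPKM, and CTSA (marked), CTSZ and SQSTM1 (marked) by 1.15, 1.07 and 1.04. Of 9 S100 calcium-binding proteins 7 rose, and S100A6 went from 189 and 120 to 675 and 698 FPKM. Of 11 FOXO-induced genes 6 rose and 3 fell: PIK3IP1, an inhibitor of PI3K, rose from 1.4 and 1.41 to 10.4 and 10.3 FPKM, CITED2 from 34.4 and 32.2 to 138 and 154 FPKM and GADD45A by 1.52. KLF2 fell from 33.2 and 26.9 to 0.946 and 1.34 FPKM. Of 16 p53 targets 5 rose and 4 fell (7 and 6 with the GC trend removed, and 5 and 2 without DMSO replicate 2), with GDF15, a stress cytokine, down by 2.42, TNFRSF10B, a death receptor, down by 1.06 and PHLDA3 (marked) up by 0.84.

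Smaller groups completed the picture. MT1E, a metal-binding metallothionein, was at 11.4 and 19 FPKM in DMSO and at 0 in both BR16 libraries, at least 181-fold lower, and it was at 0 in BR8 and BR10 as well. Of the 6 metallothionein and zinc genes 3 fell (2 fell and 1 rose without DMSO replicate 2), including SLC30A1, a zinc exporter, by 1.16. Of 21 DNA and histone methylation enzymes 12 fell and 4 rose: EZH2, the H3K27 methyltransferase, fell from 16.3 and 17.4 to 8.96 and 7.86 FPKM, DNMT1, the maintenance DNA methyltransferase, from 33.2 and 28.2 to 16.8 and 14.8 FPKM, and UHRF1 and SUZ12 by 0.82 and 0.80. Of 13 circadian clock genes 5 fell and none rose, with NPAS2 down from 5.79 and 4.68 to 1.4 and 1.39 FPKM. Of 30 cytosolic ribosomal protein genes 4 rose and 1 fell, 2 rose with the GC trend removed, and none passed without DMSO replicate 2. None of the 13 mitochondrial transcripts passed the test, and mitochondrial reads were 5.52% and 5.31% of reads in BR16 against 4.65% and 5.33% in DMSO.

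**Figure D4:**
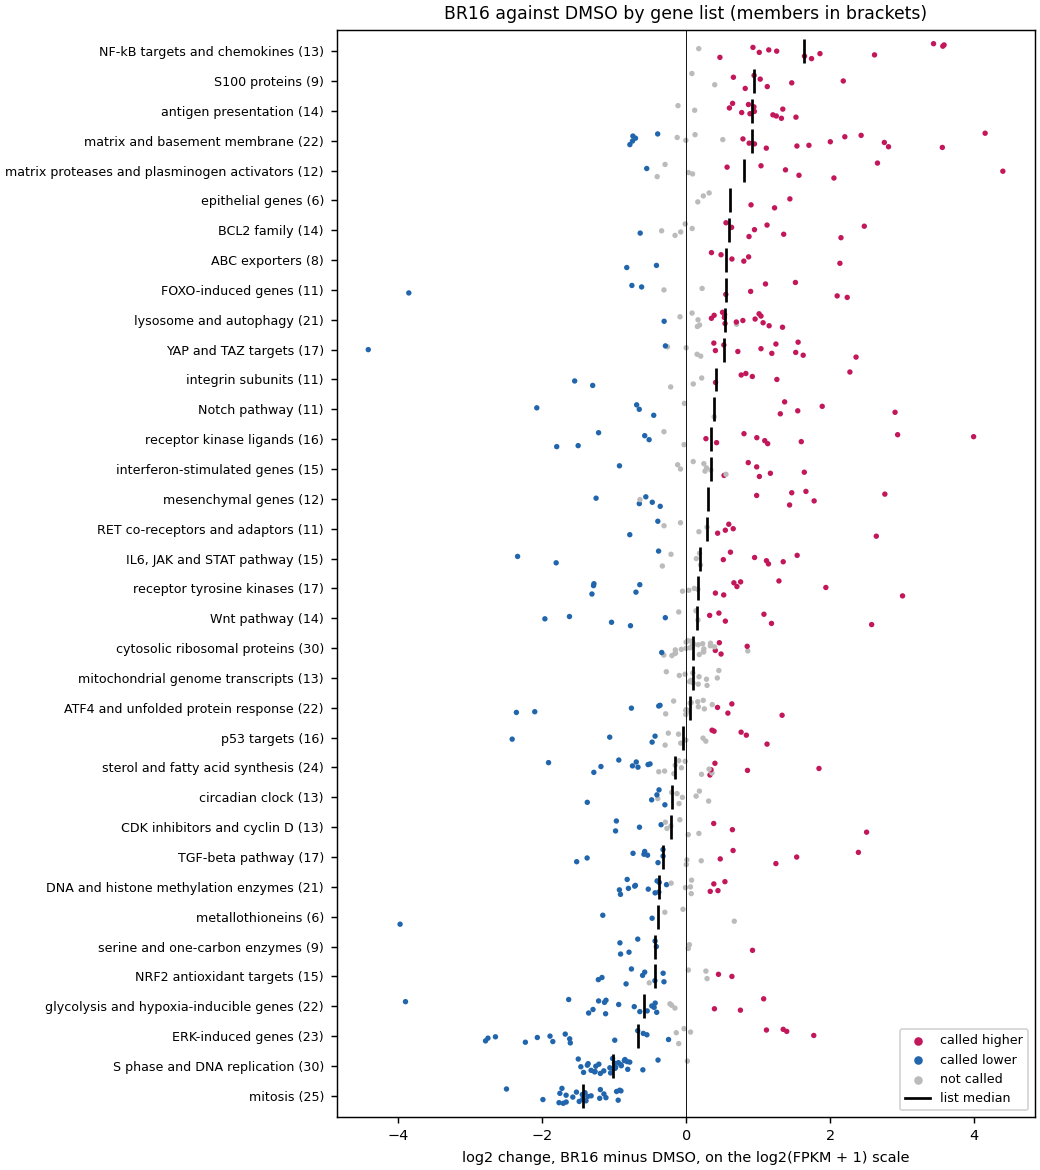
Log2 change of BR16 against DMSO for each compared gene (dot) of the lists with at least 5 compared genes, with the list median (bar) and the outcome of the limma test (colour). Mitosis and S phase genes lie at the lower end, with medians of -1.44 and -1.02, and NF-kB targets and chemokines at the upper end, with 1.64.

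The thyroid label was only partly borne out by markers in either group. Of 17 thyroid differentiation genes 4 were compared: PAX8, a thyroid lineage factor, rose from 53.4 and 35.3 to 93.6 and 94.7 FPKM and GLIS3 by 1.05, HHEX fell by 0.56, and FOXE1 (3.57 and 3.6, then 4.04 and 3.55 FPKM) did not pass the test. SLC5A5 and IYD, of iodide uptake and recycling, were at 0 in all 4 libraries. None of 12 immune cell markers reached the level of comparison, with 6 at 0 in all 4 libraries and sums of 0.274 to 0.298 FPKM in DMSO and 0.779 to 0.947 FPKM in BR16. None of 8 endothelial markers did either, with sums of 0.628 to 0.777 and 0.549 to 0.768 FPKM, nor of 8 erythroid markers. The 10 squamous markers summed to 0.615 to 0.759 FPKM in DMSO and 10.6 to 12.6 FPKM in BR16, of which SFN alone gave 12.5 and 10.6 FPKM. The 9 fibroblast markers summed to 28 to 29.6 FPKM in DMSO and 3.77 to 4.23 FPKM in BR16, most of the first sum being PDPN. Of 10 C cell and neuroendocrine markers 2 were compared, and NCAM1, an adhesion molecule, rose from 0.0508 and 0.0298 to 3.71 and 3.72 FPKM. The other did not pass the test, but passed as lower with the GC trend removed. The 10 markers summed to 12.7 to 18.7 FPKM in DMSO and 16.5 to 17.1 FPKM in BR16.

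BR16 was also set directly against the other adapted colonies. A gene was called different when it passed against the mean of BR8 and BR10 and, in the same direction, against each of them. By that rule 2181 genes were higher in BR16, 17.5% of those compared, and 1673 lower, 13.4%. With the GC trend of each library removed the counts were 884 and 1607, so the share of higher genes among the calls went from 56.6% to 35.5%, and 749 and 977 genes were called the same way in both, while 44 were called in opposite directions. Single libraries weighed on these counts too: 1296, 1267 and 1338 genes were higher without BR16 replicate 1, BR16 replicate 2 and BR10 replicate 1. Without those same libraries 764, 588 and 828 genes were lower, and without BR8 replicate 2 and BR10 replicate 2 the lower genes were 1009 and 1089. Only genes called both ways are named here as different, unless stated.

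Several of the genes that rose against DMSO stood higher in BR16 than in either other colony. SLC16A4, of the monocarboxylate transporter family, was at 15.3 and 15.6 FPKM in BR16, at 0.737 and 0.675 FPKM in BR8, at 1.17 and 0.835 FPKM in BR10 and at 2.98 and 2.44 FPKM in DMSO, a difference from the colonies of 3.16. BGN differed by 2.79, TAGLN (marked) by 2.63, COL4A4 by 2.55, SLC4A11 by 2.29 and CCL2 by 2.16. CCL2 was at 50.9 and 51.3 FPKM in BR16 against a mean of 19 FPKM in BR8 and 5.83 FPKM in BR10. KRT8, COL4A2, EDN1 and EGFR differed by 1.53, 1.65, 1.46 and 1.19. EDN2 was 1.90 above the mean of the colonies but was no longer different from BR8 with the GC trend removed. PTMS and LRFN4 (marked), which did not pass the test against DMSO, were higher than in the colonies by 2.79 and 2.83, and LRRC61 (marked), CTXN1 and TMEM141 (marked) by 2.74, 2.65 and 2.63. FTH1, a ferritin chain, shares 62.4% of its exon bases with another gene and has many near-identical copies, so its difference of 2.64 is uncertain.

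Genes below both other colonies included a junction protein, secreted defence proteins and metabolic enzymes. CLDN16, a tight junction protein, was at 4.3 and 3.43 FPKM in BR16, 20.3 and 18.5 FPKM in BR8 and 64.8 and 64.7 FPKM in BR10, with 2.54 and 3.39 FPKM in DMSO. SLPI, a secreted protease inhibitor, and CXCL8, a neutrophil chemokine, were lower by 2.04 and 1.66. MILR1, NEIL3 and CARD6 were lower by between 1.49 and 1.76 on the log2 scale. TXNRD1 was at 33.3 and 33.5 FPKM against means of 60.8 FPKM in BR8 and 177 FPKM in BR10, a difference of -1.61, and SCD differed by -1.35. PDPN, NT5E and AKR1C3 were 1.36, 1.61 and 1.22 lower than in the colonies.

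By group, 19 of 30 S phase genes were below both other colonies and none above, with a median of -0.64, and 27 were below with the GC trend removed. Of 25 mitosis genes 10 were below and none above, with and without the trend. Of 15 NRF2 targets 7 were below and 2 above (8 and 2 without the trend), and of 24 sterol and fatty acid genes 9 were below and 2 above (10 and 0 without it). Of 13 mitochondrial transcripts 10 were above both colonies, with and without the trend. MT-ND1, of respiratory complex I, had a mean of 859 FPKM in BR8 and 1042 FPKM in BR10 and was at 3969.9 and 3569 FPKM in BR16. Mitochondrial reads were 3.23% to 3.64% of reads in BR8 and BR10. Notch pathway genes were above both colonies in 7 of 11 cases, but in 2 with the trend removed, namely NOTCH3 and JAG1.

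**Figure D5:**
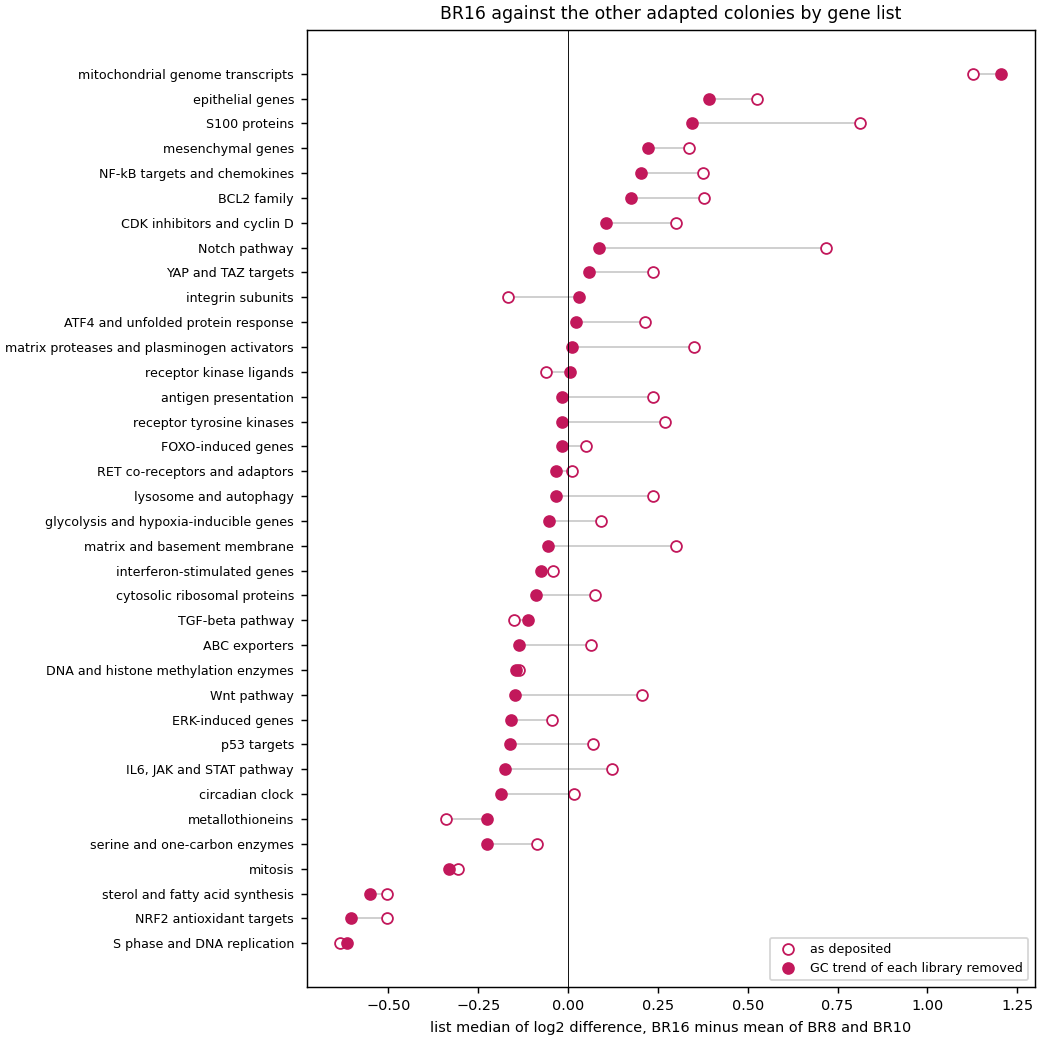
Median over each list of the log2 difference between BR16 and the mean of BR8 and BR10, as deposited (open) and with each library's GC trend removed (filled). S phase, NRF2 and sterol lists lie below -0.5 either way and mitochondrial transcripts above 1, while the Notch median of 0.72 falls to 0.09.

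Against cells given BLU667 for 24 h, BR16 was higher for 4384 genes, 35.2%, and lower for 3193, 25.6%, and with the GC trend removed for 4138 and 3534. All 30 S phase genes and all 25 mitosis genes were higher in BR16, with medians of 1.89 and 2.77. TOP2A, at 42.9 and 38.9 FPKM in BR16, had a mean of 2.48 FPKM after 24 h of drug, and PBK, at 10.1 and 8.33 FPKM, one of 0.661 FPKM. Of 23 ERK-induced genes 16 were higher than after 24 h and 3 lower, with a median of 0.83. ETV5 had a mean of 0.197 FPKM after 24 h and was at 2.47 and 2.44 FPKM in BR16, and CCND1 had 3.89 FPKM and was at 69.9 and 69.2 FPKM, whereas SPRY1 (a mean of 0.353 FPKM after 24 h) and ETV1 (0.0743 FPKM) did not pass the test. MAL2 and NOV, high in BR16, were still near the DMSO level after 24 h, at 0.629 and 1.22 FPKM and at 0.191 and 0.366 FPKM. EDN1 had already reached 28.3 and 36.2 FPKM after 24 h, above its level in BR16.

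Inhibitors of the cell cycle and cyclin D genes moved both ways against 24 h of drug, with 6 of 13 higher in BR16 and 6 lower. CDKN1C had a mean of 54.9 FPKM after 24 h and CDKN1B, for the inhibitor p27, one of 75.8 FPKM, against 19.6 and 25.8 FPKM and 25.6 and 27.3 FPKM in BR16. Matrix and basement membrane genes were higher than after 24 h in 11 of 22 cases and lower in 4 (7 with the GC trend removed), and matrix proteases in 9 and 2 of 12. MMP2, a gelatinase of the mesenchymal list looked up after the values were seen, had a mean of 119 FPKM after 24 h and was at 15.4 and 12.7 FPKM in BR16. MT1E was at 48.7 and 59.5 FPKM after 24 h and at 0 in BR16, a difference of -5.78. Of 11 FOXO-induced genes 7 were lower in BR16 than after 24 h and 3 higher, with a median of -0.48.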

How the data were processed

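RNA of 10 TPC-1 libraries (5 groups of 2) was sequenced. Per the submitters' processing notes, CASAVA, STAR 2.5, HTSeq 0.6.1 and DESeq2 2 were used with GRCh38. The authors deposited FPKM per gene, which multiplied by gene length and scaled gave whole reads for 100% of values (tolerance 0.05 reads). Gene IDs and coordinates were those of GENCODE. Genes at 1 FPKM or more in 2 of the 10 libraries, 13927, were taken to log2 after adding 1. One limma model (limma 3.58.1, R 4.3.3) held all 5 groups, used a variance trend and left 5 residual degrees of freedom, and p-values were Benjamini-Hochberg adjusted over all of them. The GC trend was removed per library by loess (span 0.3). Exact permutation tests cannot reach 0.05 with 2 libraries a group. Spread between libraries may be technical, since the labels call them biological replicates without saying more. The fit was run on simulated reads with 200 changed genes and the same spread in every group. The real pairs differed in spread, so that run does not show how the fit does on them.

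Members and gene lists were chosen with earlier results of these data known. Named genes were RET, CCDC6, TERT and CDKN2A, the 12 largest rises and falls among called protein-coding genes with at least 5 FPKM in the higher group, up to 4 called genes per list, the 8 largest differences from the other colonies each way, up to 6 genes at 0 in 1 group, and the 5 most abundant. The largest rises and falls also had to have no overlap between the BR16 and DMSO libraries. Others named from a list or the chromosome 7 stretch were chosen after their values were seen. Floors of 3 reads cover counting error only. Alternatives were other pseudocounts (0.1 and 0.25), filters (none, or 5 FPKM), quantile normalization, no variance trend, the replicate block, GC removal, voom on the recovered reads, only the groups compared, and leaving out each library. Results for some genes that the rule names are not reported here.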

Additional observations from a re-analysis of the deposited data

Results flagged for a closer look

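For 10 named genes the change against DMSO in BR16 was opposite in sign to that of the mean of BR8 and BR10, and the direct contrast between the colonies passed the test (limma, adjusted p below 0.05). Those higher in BR16 than in the other colonies were BBC3 by 1.63, PHLDA3 by 1.53, SLC16A4 by 3.16, LRRC61 by 2.74, CTXN1 by 2.65 and TMEM141 by 2.63 on the log2 scale. With the GC trend removed these differences were 0.38, 0.97, 3.33, 1.91, 1.18 and 2.01. Those lower in BR16 were TXNRD1, at -1.61, NQO1, at -1.16, MT2A, at -0.85, and CARD6, at -1.49, and with the GC trend removed -1.53, -1.11, -1.09 and -1.40. TXNRD1 and NQO1, both antioxidant genes, were below DMSO in BR16 and highest in BR10. PHLDA3, LRRC61, TMEM141 and NQO1 share over 10% of their exon bases with another gene. The changes of CTXN1, TMEM141 and MT2A against DMSO did not pass the test in BR16 without some single libraries, DMSO replicate 2 among them (limma adjusted p = 0.1131, 0.1909 and 0.1326).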

How the results depend on the processing

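Against DMSO, 180 of 196 genes tested that the naming rule gives kept their direction and call under the 15 alternatives run for them, and none of the 196 reversed. With the GC trend removed, 44 genes were called in the opposite direction against the colonies, 2 against BLU667 and 0 against DMSO. Of the counts, those at a change of at least 1 on the log2 scale were 948 higher and 654 lower against DMSO, 705 and 79 against BR8 and BR10, and 1492 and 672 against BLU667. With the GC trend removed these were 822 and 667, 195 and 112, and 1107 and 698. With a filter of 5 FPKM, 1877 genes were higher than in DMSO and 1809 lower than after BLU667, where fewer genes were tested. With the GC trend removed 884 genes were higher than in the other colonies, and 825 with the replicate block as well; the cause was not tested. With quantile normalization 47.1% of the calls against the colonies and 50.3% of those against BLU667 were higher in BR16, where they had been 56.6% and 57.9%. Leaving out 1 library gave 2061 to 3153 higher and 2116 to 3548 lower genes against DMSO, and, over the libraries of the groups compared, 1267 to 1914 higher and 588 to 1122 lower against the colonies. The lowest of these 4 counts came without BR16 replicate 1 for the first and without BR16 replicate 2 for the others; fewer samples entered each. Medians that changed sign were those of the p53 targets (-0.04, and 0.08 without DMSO replicate 1), the ATF4 list (0.05, and -0.10 with the GC trend removed and -0.04 without DMSO replicate 2) and the mitochondrial transcripts (0.10, and -0.02 without DMSO replicate 1).

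The replicate block gave 2754 higher and 3028 lower genes against DMSO. Deviations of same-numbered libraries correlated at -0.163 to 0.109, so the numbers did not pair the samples. At 15243703 to 21904245 reads a library, genes near 1 FPKM are the least precise, and 2 libraries a group leave 5 residual degrees of freedom.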
